A study of Mus musculus with 51 samples.

Results

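The peaks described here are the autosomal H3K4me3 and H3K36me3 peaks of embryonic day 6.5 (E6.5) mouse epiblast and extra-embryonic ectoderm (ExE) that were assigned to a gene whose symbol begins with Zfp, the mouse prefix for zinc finger proteins, with Zfp64 left out. There were 461 such H3K4me3 peaks among 33329 in epiblast and 513 among 40468 in ExE. For H3K36me3, 347 of 23959 epiblast peaks and 276 of 12871 ExE peaks were assigned to a Zfp gene. Together the 1597 peaks named 337 genes, of which 259 had peaks of both marks, 59 of H3K4me3 alone and 19 of H3K36me3 alone. Peaks of the 2 tissues that overlapped were joined, which gave 547 H3K4me3 regions of 45650 and 331 H3K36me3 regions of 24238.

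The study profiled H3K4me3, H3K36me3 and H3K27me3 by ultra-low-input native ChIP-seq, in which chromatin is cut with micrococcal nuclease without fixation, from pools of 4 epiblasts or 8 ExE. Embryos came from reciprocal crosses of C57BL6/Babr (B6) and CAST/EiJ (CAST), written with the mother first (B6/CAST and CAST/B6), and both crosses are called wild type. A further cross, matDKO/CAST, had CAST fathers and mothers of mixed B6 and 129 background in which floxed Dnmt3a and Dnmt3b were deleted by Zp3-cre, a transgene active in the growing oocyte. Its embryos inherited a deleted copy of both genes from the mother and intact copies from the father, and the question put to this cross was which allelic patterns depend on DNA methylation laid down in the oocyte. Each of the 18 combinations of cross, tissue and mark had 2 libraries (36 in all), and 15 input libraries were made beside them. By the study's methods each pool of chromatin was shared out among the antibodies, but the replicate numbers of the marks differ for CAST/B6 and matDKO/CAST epiblast, so not every library can be matched to its pool across the 3 marks.

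Most mammalian zinc finger genes of this family encode DNA-binding proteins with arrays of C2H2 fingers, and many also carry a KRAB domain, which recruits the corepressor TRIM28 and the histone methyltransferase SETDB1 to silence transposable elements and imprinted loci. They have multiplied by tandem duplication, so they lie in clusters, above all on mouse chromosome 7. H3K4me3 marks active and poised promoters, H3K36me3 accumulates over transcribed gene bodies, and H3K27me3 is the mark of Polycomb repression. Near-identical fingers mean that reads from one family member can be placed on another, and no filter on mapping quality is given in the sources used here, so values of closely related neighbours are uncertain to that extent.

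The promoters of 6 genes on which the results turn are shown for comparison, as the 250 bases before the annotated start, 5′ to 3′ on the gene's strand, from the RefSeq promoter table (GRCm38.p6). Capitals mark CpG. Zfp936 and Zfp42 were the genes with the largest ExE excess of H3K4me3 at a start, Zfp536 had the opposite tissue pattern, Zfp59 was strain-biased in both tissues, and Zfp109 and Zfp94 differed in parental bias in matDKO/CAST.
Zfp936 (chr7:43177340-43177589, plus strand): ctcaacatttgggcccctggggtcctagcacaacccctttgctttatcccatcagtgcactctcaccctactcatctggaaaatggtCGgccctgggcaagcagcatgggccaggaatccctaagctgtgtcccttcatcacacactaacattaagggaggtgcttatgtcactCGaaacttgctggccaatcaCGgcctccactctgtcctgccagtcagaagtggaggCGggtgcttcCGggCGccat
Zfp42 (chr8:43307010-43307259, minus strand): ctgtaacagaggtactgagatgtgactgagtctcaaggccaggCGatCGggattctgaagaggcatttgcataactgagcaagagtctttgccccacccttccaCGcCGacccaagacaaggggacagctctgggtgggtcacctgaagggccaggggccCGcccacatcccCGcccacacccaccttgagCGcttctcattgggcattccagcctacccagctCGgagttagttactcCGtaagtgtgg
Zfp536 (chr7:37769753-37770002, minus strand): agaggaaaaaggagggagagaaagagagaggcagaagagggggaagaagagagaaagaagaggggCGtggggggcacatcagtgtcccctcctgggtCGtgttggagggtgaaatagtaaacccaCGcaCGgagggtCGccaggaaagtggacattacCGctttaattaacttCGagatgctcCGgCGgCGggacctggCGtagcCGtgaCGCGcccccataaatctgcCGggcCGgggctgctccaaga
Zfp59 (chr7:27838334-27838583, plus strand): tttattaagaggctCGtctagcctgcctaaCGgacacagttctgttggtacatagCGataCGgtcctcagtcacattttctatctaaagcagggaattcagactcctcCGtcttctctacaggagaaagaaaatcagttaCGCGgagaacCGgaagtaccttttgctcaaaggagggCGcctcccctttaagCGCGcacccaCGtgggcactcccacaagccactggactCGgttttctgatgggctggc
Zfp109 (chr7:24237599-24237848, minus strand): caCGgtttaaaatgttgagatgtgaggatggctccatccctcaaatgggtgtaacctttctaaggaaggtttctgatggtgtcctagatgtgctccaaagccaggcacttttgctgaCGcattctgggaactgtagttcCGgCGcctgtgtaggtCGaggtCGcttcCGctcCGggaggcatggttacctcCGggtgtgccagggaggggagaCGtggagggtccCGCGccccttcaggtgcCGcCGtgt
Zfp94 (chr7:24316667-24316916, minus strand): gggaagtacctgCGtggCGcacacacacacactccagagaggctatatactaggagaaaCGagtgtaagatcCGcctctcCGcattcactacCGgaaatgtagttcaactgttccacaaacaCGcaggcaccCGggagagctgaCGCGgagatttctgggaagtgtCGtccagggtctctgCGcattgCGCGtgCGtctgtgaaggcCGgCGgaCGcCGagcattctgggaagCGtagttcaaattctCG
The Zfp936 and Zfp42 windows held 6 and 9 CpGs, against 16 in Zfp536, 13 in Zfp59, 14 in Zfp109 and 21 in Zfp94.

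Total signal was read as RPKM (reads per kilobase, scaled to the reads of the library) in 1-kb windows, with 4710217 to 20788484 reads in windows per H3K4me3 library, 2287746 to 14003247 per H3K36me3 library and 3466006 to 24344460 per H3K27me3 library. The tissue labels were checked with marker lists: 4 of 5 tested epiblast genes had more H3K4me3 in epiblast, among them the pluripotency factor Pou5f1 (15.4 against 2.99 RPKM), and 6 of 9 ExE genes had more in ExE. Against their label, Esrrb of the ExE list had more H3K4me3 in epiblast (6.34 against 3.66 RPKM) and Pou3f1 of the epiblast list more H3K36me3 in ExE (0.871 against 1.12 RPKM). Genes of visceral endoderm, the neighbouring layer, were higher in ExE in 3 of 5 cases for H3K4me3 and 5 of 6 for H3K36me3, with summed H3K36me3 of 3.34 to 4.19 RPKM in the epiblast libraries and 7.40 to 11.2 RPKM in ExE. Of 6 genes of maternal decidua and blood, 2 had a tested H3K4me3 region, both higher in epiblast, and none had a tested H3K36me3 region. The part of these other cells in the differences below was not tested, and in pooled tissue fewer cells with a mark and less mark per cell cannot be told apart.

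In wild-type embryos a minority of Zfp regions differed in H3K4me3 between epiblast and ExE. Of 485 Zfp regions tested, 68 were higher in ExE and 67 in epiblast (limma on log2(RPKM + 0.5), Benjamini-Hochberg adjusted p under 0.05), that is 14.0% and 13.8%, where 23.8% and 20.6% of all 35358 tested regions were called, 44.4% in either direction. The balance of directions depended on filter and scaling: among regions with a mean of at least 1 RPKM, limma called 28 Zfp regions higher in ExE and 57 in epiblast (11.4% and 24.3% of all such regions), and edgeR with TMM scaling called 102 and 73 (30.1% and 20.3% of all). The median difference (ExE minus epiblast) was -0.01 on the log2 scale for Zfp regions and 0.02 for all, and by edgeR 0.06 and 0.11. Epiblast and ExE libraries did not overlap at 82 of the 135 called Zfp regions, and over all tested regions 17.5% of Zfp regions and 26.4% of regions in general had no overlap. Leaving out B6/CAST ExE replicate 1 lowered the count higher in ExE from 68 to 35 (13.6% of all regions), and the count higher in epiblast from 67 to 58 (18.7% of all), so the calls over all regions fell too.

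Calls were also counted by position in the gene. Among 311 regions over a transcript start of their own gene, 35 were higher in epiblast and 18 in ExE (17.0%), and among all start-site regions 29.5% were called, 20.5% higher in epiblast and 8.97% in ExE. Of 42 regions over coding exons away from a start, 16 were higher in ExE and 4 in epiblast, of 64 intronic regions 17 and 12, and of 39 regions downstream of the gene 9 and 9. Over all 173 tested Zfp regions without a start, 28.9% were higher in ExE and 18.5% in epiblast, beside 33.4% and 20.6% of all such regions, and shares of all coding-exon or intronic regions alone were not computed. Start-site regions carried a median of 8.89 RPKM in epiblast and 8.42 RPKM in ExE, whereas the coding-exon and intronic regions had medians of 0.915 and 0.583 RPKM in epiblast. Peaks were assigned to the nearest gene by the authors, so the weak regions away from a start may belong to other features.

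**Figure D1:**
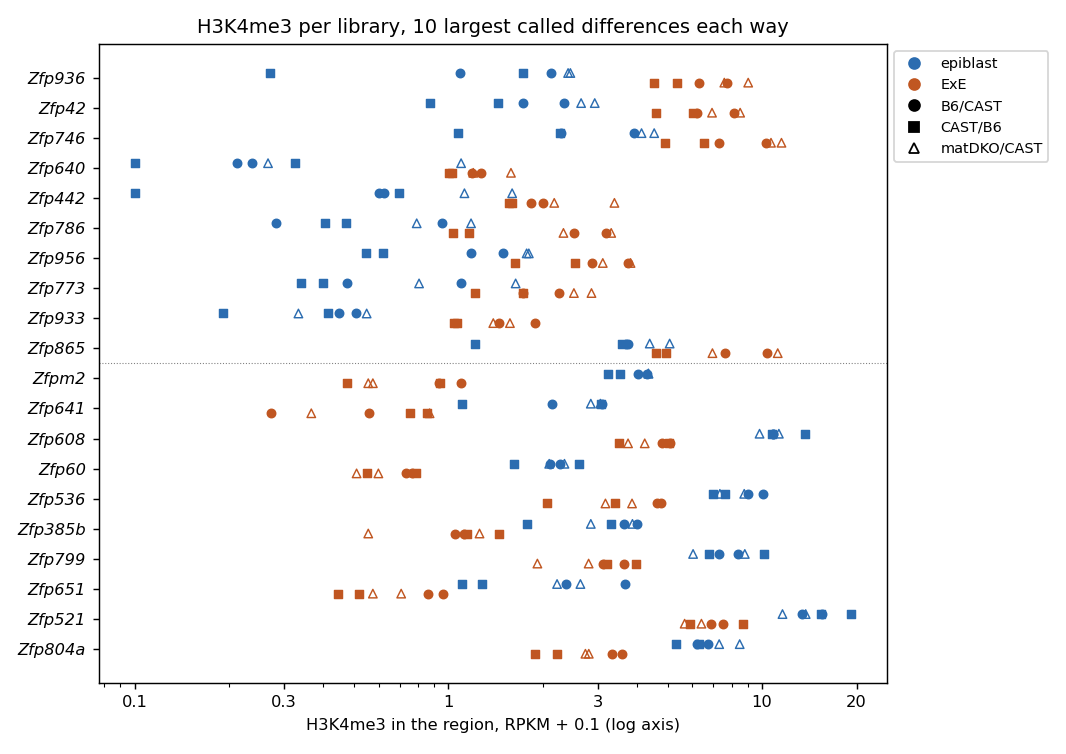
H3K4me3 (RPKM + 0.1, log axis) in each library at the 10 Zfp regions with the largest called difference in each direction. Each point is 1 library, with colour for tissue and marker shape for cross, and at all 20 regions the wild-type epiblast and ExE libraries do not overlap.

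The largest ExE excess at a start site was at Zfp936, a gene of a 5-gene cluster on chromosome 7. Over its start (chr7:43176001-43180000), H3K4me3 was 2.03 and 0.989 RPKM in the B6/CAST epiblast libraries and 0.171 and 1.62 RPKM in the CAST/B6 epiblast libraries. In ExE it was 7.60 and 6.18 RPKM in B6/CAST and 4.42 and 5.24 RPKM in CAST/B6. All 4 ExE libraries were above all 4 epiblast libraries, with a log2 difference of 2.04 (SE 0.20, limma adjusted p = 1.35e-11). The matDKO/CAST libraries, which did not enter that difference, gave 2.35 and 2.31 RPKM in epiblast and 7.48 and 8.93 RPKM in ExE.

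Zfp42, known as Rex1 and widely used as a marker of pluripotent cells, had 2.23 and 1.63 RPKM in B6/CAST epiblast and 0.776 and 1.34 RPKM in CAST/B6 epiblast (chr8:43302501-43310500). Its ExE values were 8.06 and 6.08 RPKM in B6/CAST and 4.48 and 5.92 RPKM in CAST/B6, again without overlap (log2 difference 1.76, SE 0.16, limma adjusted p = 3.18e-12). Zfp746, whose product is the Parkin substrate PARIS, followed with epiblast values of 3.80, 2.18, 0.976 and 2.18 RPKM and ExE values of 10.2, 7.18, 4.79 and 6.42 RPKM in the same order of libraries (log2 difference 1.51, SE 0.17, limma adjusted p = 1.03e-09). The tissues were apart at Zfp746 as well, its lowest ExE library lying above its highest epiblast library. Zfp640, Zfp442, Zfp786, Zfp956, Zfp773, Zfp933 and Zfp865 completed the 10 largest differences toward ExE, between 1.31 and 1.10 on the log2 scale.

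Toward epiblast the largest difference was in an intron of Zfpm2, the GATA cofactor FOG2 (chr15:40978001-40980000). Its epiblast libraries had 3.92, 4.20, 3.42 and 3.14 RPKM and its ExE libraries 0.832, 1.00, 0.375 and 0.842 RPKM, B6/CAST before CAST/B6. The groups were well apart (log2 difference -1.74, SE 0.16, limma adjusted p = 5.71e-12), and the start of Zfpm2 was also higher in epiblast, at 9.61 against 4.70 RPKM (log2 difference -0.96). Zfp536, which encodes a multi-finger repressor of the nervous system, had 9.97, 8.90, 7.51 and 6.88 RPKM in epiblast and 4.51, 4.65, 1.97 and 3.31 RPKM in ExE over its start (log2 difference -1.15, SE 0.16, limma adjusted p = 9.87e-08). Its epiblast and ExE libraries did not overlap.

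At Zfp521, a developmental regulator of neural and blood progenitors, the start-site region had 15.5, 13.4, 19.1 and 15.3 RPKM in epiblast and 7.41, 6.76, 5.81 and 8.62 RPKM in ExE (log2 difference -1.09, SE 0.17, limma adjusted p = 6.63e-07). Zfp804a had 6.61, 6.11, 6.19 and 5.20 RPKM in epiblast and 3.21, 3.46, 1.79 and 2.12 RPKM in ExE (log2 difference -1.09, limma adjusted p = 1.20e-07). Both genes had all epiblast libraries above all ExE libraries. Zfp641, Zfp608, Zfp60, Zfp385b, Zfp799 and Zfp651 made up the rest of the 10 largest, between -1.41 and -1.10. In matDKO/CAST, 133 of the 135 called Zfp regions differed in the same direction (98.5%, beside 96.8% of all regions called in wild type). Of the 68 higher in ExE 33 passed the test there too (48.5%, beside 38.6% of all), and of the 67 higher in epiblast 43 did (64.2%, beside 75.5% of all), including all 20 named here. Counted on their own, the matDKO/CAST libraries gave 38 Zfp regions higher in ExE and 49 in epiblast (limma), 7.84% and 10.1%, where 10.3% and 19.4% of all regions were called. This split turned with the scaling. By edgeR with TMM the counts were 56 and 44 (4484 and 6033 of all 35358 regions). With libraries centred on their median they were 47 and 37 (5459 and 5565 of all). The 38 fell to 21 without matDKO/CAST ExE replicate 2 (4.53% of all) and the 49 to 32 without epiblast replicate 1 (13.5% of all).

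H3K27me3, which had no part in choosing the peaks, was read over the same H3K4me3 regions. Of 150 Zfp regions with enough H3K27me3 to test, 41 were higher in ExE and 36 in epiblast (27.3% and 24.0%), where 29.3% and 14.8% of all tested regions were called, 44.1% in either direction. This split depended on the scaling: with libraries centred on their median, 18 were higher in ExE and 56 in epiblast (12.6% and 25.9% of all), while the median difference of all tested regions moved from 0.18 to -0.04 and that of Zfp regions from 0.07 to -0.15. By edgeR with TMM scaling the counts were 34 and 55 (25.9% and 24.0% of all) and the medians 0.11 and -0.07, so in all 3 scalings the Zfp median lay below that of all tested regions. The split within matDKO/CAST moved with the scaling too. There edgeR with TMM called 15 regions higher in ExE and 34 in epiblast (1457 and 2586 of all 17453). Centred libraries gave 12 and 30 (1292 and 2105 of all). In matDKO/CAST limma called 19 regions higher in ExE and 14 in epiblast (11.0% and 4.9% of all), and the 19 fell to 0 without matDKO/CAST ExE replicate 2, when 1.5% of all regions were called.

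Zfp9 had the largest H3K27me3 difference. Its start region (chr6:118477001-118480500) had 3.42, 5.69, 5.51 and 5.59 RPKM in epiblast and 1.04, 1.41, 1.18 and 0.883 RPKM in ExE, B6/CAST before CAST/B6 (log2 difference -1.76, SE 0.17, limma adjusted p = 1.22e-08). The tissues did not overlap, and H3K4me3 of the same region was higher in ExE (log2 difference 0.53, limma adjusted p = 0.0061). At Zfp865, H3K27me3 was 3.61, 4.60, 3.03 and 2.11 RPKM in epiblast and 1.14, 0.689, 0.982 and 0.713 RPKM in ExE (log2 difference -1.45, limma adjusted p = 1.27e-06), also without overlap.

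In the other direction, H3K27me3 at the Zfp521 start was 1.43, 1.07, 0.953 and 0.829 RPKM in epiblast and 2.71, 2.16, 2.76 and 2.25 RPKM in ExE, where every ExE library was above every epiblast library (log2 difference 0.93, limma adjusted p = 4.88e-05). Zfp422 and Zfp385a had differences of 0.95 and 0.91. For both marks 132 Zfp regions were tested and 33 were called. In 24 of the 33 (72.7%) the marks differed in opposite directions, and over all regions 1917 of 3300 (58.1%) did. Of the 24, 19 had more H3K4me3 in epiblast and more H3K27me3 in ExE, and 5, at Zfp933, Zfp9, Zfp865, Zfp444 and Zfp382, had the reverse. These counts rest on limma calls without centring. With libraries centred on their median, only 18 Zfp regions in all were called higher in ExE for H3K27me3, so the 19 cannot all hold there. The pairing of the marks was not counted under other scalings. Most libraries of both marks carry the same replicate number, apart from CAST/B6 epiblast, so these are not fully separate samples.

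**Figure D2:**
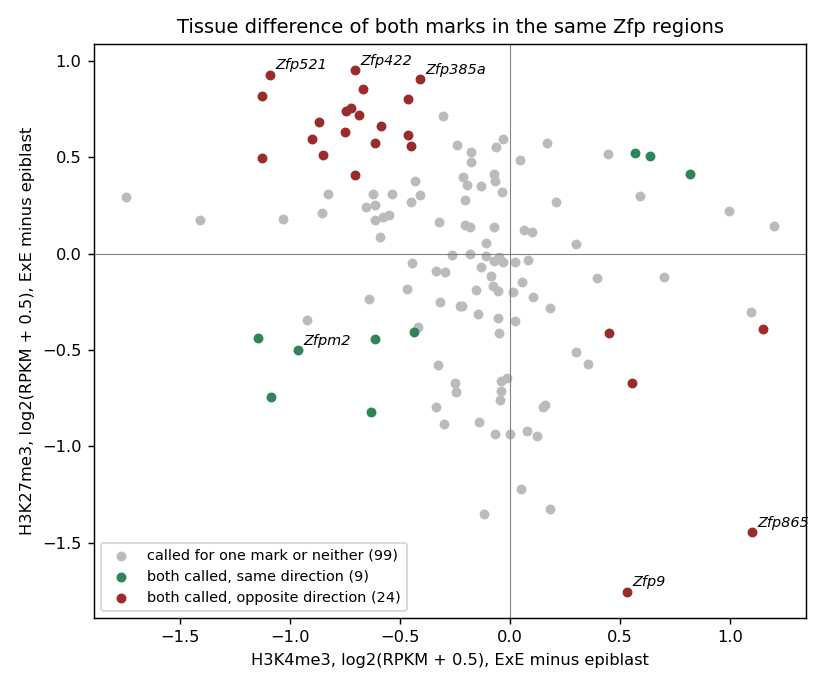
Tissue difference of H3K27me3 against that of H3K4me3 (log2, ExE minus epiblast, limma without centring of libraries) for the 132 Zfp regions tested for both marks. Each point is 1 region, coloured by whether it was called for both marks in opposite or the same direction, and most of the 33 called for both lie at the upper left or lower right.

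Called H3K36me3 differences at Zfp regions were more often toward ExE than toward epiblast, but the comparison with all regions depended on the level of signal. Of 316 tested Zfp regions, 130 (41.1%) were higher in ExE and 26 (8.23%) in epiblast, and of all 17157 tested regions 31.5% and 19.6% were called, 51.1% in either direction (limma, adjusted p under 0.05). The median difference was 0.18 on the log2 scale for Zfp regions and 0.06 for all, and the tissues did not overlap at 86 of the 156 called Zfp regions (40.5% of all tested regions and 28.8% of Zfp regions had no overlap). A count test on the recovered reads (edgeR, TMM) placed the median of all regions at -0.08 and that of Zfp regions at 0.10, with 103 Zfp regions higher in ExE and 54 in epiblast (26.7% and 34.2% of all). Median levels were low, 0.938 RPKM in epiblast and 1.18 RPKM in ExE. The 26 regions higher in epiblast fell to 14 without CAST/B6 epiblast replicate 1 (12.5% of all), and to 16 or 17 without B6/CAST epiblast replicate 1, CAST/B6 epiblast replicate 2, B6/CAST ExE replicate 2 or CAST/B6 ExE replicate 1. Tested H3K36me3 regions spanned 0.5 to 288.5 kb (median 20.5 kb), and 80 of the 316 (25.3%) overlapped more than 1 coding gene, so that a value can include signal of a neighbour. Among regions with a mean of at least 1 RPKM, 106 of 172 Zfp regions were higher in ExE and 5 in epiblast, beside 81.0% and 2.27% of all such regions. The median difference there was 0.26 for Zfp regions and 0.34 for all, so at that level Zfp regions lay below regions in general.

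Zfp936 again had the largest difference. Its H3K36me3 region, which spans the gene (chr7:43175001-43200000), had 1.35, 1.04, 0.749 and 0.806 RPKM in epiblast and 4.30, 3.37, 1.96 and 2.09 RPKM in ExE (log2 difference 1.17, SE 0.09, limma adjusted p = 6.39e-05). Every ExE library was above every epiblast library, and the matDKO/CAST libraries had 2.13 and 2.02 RPKM in epiblast and 3.83 and 3.61 RPKM in ExE. Zfp52, in the large chromosome 17 cluster, had 1.10, 0.786, 1.03 and 1.12 RPKM in epiblast and 2.89, 2.59, 1.69 and 1.87 RPKM in ExE (log2 difference 0.85, limma adjusted p = 0.00033). Zfp42 had 0.676, 0.506, 0.662 and 0.541 RPKM in epiblast and 1.85, 1.59, 1.05 and 1.15 RPKM in ExE (log2 difference 0.78, limma adjusted p = 0.000656). Neither gene's libraries overlapped between tissues.

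Zfp946 had the largest H3K36me3 difference toward epiblast, with 1.97, 1.45, 1.98 and 2.21 RPKM in epiblast and 1.08, 1.14, 0.689 and 0.959 RPKM in ExE (log2 difference -0.71, SE 0.11, limma adjusted p = 0.000852). Its tissues did not overlap either. Zfp467, Zfp811, Zfp608 and Zfp521 followed, at -0.69, -0.66, -0.63 and -0.60. For 218 genes both the H3K4me3 start-site region and H3K36me3 were tested. Both marks were higher in epiblast at 7 (Zfp365, Zfp467, Zfp521, Zfp608, Zfp827, Zfp941 and Zfp946) and higher in ExE at 3 (Zfp42, Zfp664 and Zfp936), while Zfp593 was called in opposite directions. At 94 genes (43.1%) H3K36me3 was higher in ExE with no call for H3K4me3. Of all 7688 genes so compared, both marks were higher in epiblast at 6.01% and in ExE at 4.16%, they were opposite at 2.35%, and H3K36me3 alone was higher in ExE at 56.8%, so the Zfp shares of 3.21%, 1.38%, 0.459% and 43.1% were each the lower. In matDKO/CAST, 62 of the 130 regions higher in ExE (47.7%, beside 45.3% of all regions called in wild type) and 4 of the 26 higher in epiblast (15.4%, beside 20% of all) passed again, and 151 of the 156 kept their direction (96.8%, beside 92.0% of all). On their own, the matDKO/CAST libraries gave 74 Zfp regions higher in ExE and 5 in epiblast (limma), 23.4% and 1.58%, where 16.4% and 5.13% of all regions were called. Without matDKO/CAST epiblast replicate 2 the 74 fell to 15 (2.22% of all), without either matDKO/CAST ExE library to 37 or 38 and without either CAST/B6 epiblast library to 48 or 49, and edgeR with TMM called 43 and 12 (7.94% and 7.8% of all).

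Grouped by known roles, the 2 proteins that protect imprinted DNA methylation, Zfp57 and Zfp445, did not pass the test for H3K4me3 (8.15 and 7.74 RPKM, and 10.8 and 9.50 RPKM, epiblast before ExE) and had more H3K36me3 in ExE. For Zfp445 the H3K36me3 means were 1.88 RPKM in epiblast and 2.73 RPKM in ExE (log2 difference 0.43, limma adjusted p = 0.0040), and for Zfp57 0.985 and 1.20 RPKM (log2 difference 0.20, limma adjusted p = 0.037). At both genes the epiblast and ExE libraries overlapped, and both regions reach other coding genes. Of all tested H3K36me3 regions 31.5% were higher in ExE, and 81.0% of those with a mean of at least 1 RPKM. Of 7 listed binders of retroelements, none of 7 tested H3K4me3 regions in 5 genes was called (23.8% and 20.6% of all regions were). Of their 6 tested H3K36me3 regions 2 were higher in ExE and 1 in epiblast, beside 31.5% and 19.6% of all. H3K36me3 was higher in ExE at Zfp809, which silences murine leukaemia virus elements (2.75 against 3.84 RPKM, log2 difference 0.42, limma adjusted p = 0.012), and at Zfp708 (1.10 against 1.69 RPKM, log2 difference 0.44, limma adjusted p = 0.00039), with libraries that overlapped between the tissues at both and regions that also cover neighbouring genes. A region of Zfp819 was higher in epiblast (0.752 against 0.462 RPKM, log2 difference -0.38).

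Among 9 genes listed for pluripotency and the early embryo, 5 had an H3K4me3 region, and 8 of 15 tested regions were higher in ExE and 2 in epiblast, where 23.8% and 20.6% of all tested regions were. The calls toward epiblast were the start sites of Zfp462 (15.5 against 11.1 RPKM, log2 difference -0.47, limma adjusted p = 0.023) and Zfp217 (9.54 against 6.86 RPKM, log2 difference -0.45, limma adjusted p = 0.022). Apart from Zfp42, the calls toward ExE were weak regions of Zfp462, Zfp143 and Zfp217 with ExE means between 0.742 and 1.67 RPKM. The start of Zfp281 had 7.40 RPKM in epiblast and 7.80 RPKM in ExE and was not called.

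Of the multi-finger developmental regulators, 34 H3K4me3 regions in 10 of 12 listed genes were tested, and 15 regions of 7 genes were higher in epiblast and 5 regions of 2 genes in ExE, beside 20.6% and 23.8% of all tested regions. Zfp423, a regulator of neural and fat cell development, had 6 of its regions higher in epiblast, with 8.51 ± 0.627 RPKM in epiblast and 5.20 ± 0.775 RPKM in ExE (SD, n = 4) over a start, while H3K27me3 of the same region was 0.886 RPKM in epiblast and 2.01 RPKM in ExE (log2 difference 0.85, limma adjusted p = 8.43e-05). Zfp503 had 6.95 against 3.54 RPKM of H3K4me3 (log2 difference -0.92). Of 21 tested H3K36me3 regions of this group 12, in 3 genes, were higher in epiblast and none in ExE, beside 19.6% and 31.5% of all tested regions. At Zfp703 H3K4me3 was 6.50 and 6.45 RPKM, while H3K27me3 was 1.76 RPKM in epiblast and 0.677 RPKM in ExE (log2 difference -0.93, limma adjusted p = 3.65e-05). The RNA-binding Zfp36l1 and Zfp36l2 were not called for H3K4me3, and the H3K36me3 region of Zfp36l2 had more in ExE (1.17 against 1.59 RPKM, log2 difference 0.32), but it spans 288.5 kb and also covers Thada, so the value is not that of Zfp36l2 alone.

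Cofactors through which KRAB proteins silence were compared as a list of 26 symbols for 24 genes, since Fam208a and 2810474O19Rik are older names of Tasor and Resf1. For H3K4me3, 20 were tested, with a median difference of -0.10. A weak region of Cbx3 was higher in ExE (0.628 against 1.36 RPKM, epiblast before ExE) and Atf7ip in epiblast (6.49 against 4.43 RPKM). Of all tested regions 23.8% and 20.6% were called. For H3K36me3, 9 of 17 tested genes were higher in ExE and none in epiblast, with a median of 0.25. The shares were 31.5% and 19.6% of all tested regions, and 81.0% and 2.27% of those with a mean of at least 1 RPKM. Trim28, the shared corepressor, had 1.09 RPKM in epiblast and 1.41 RPKM in ExE (log2 difference 0.26, limma adjusted p = 0.035), and the maintenance methyltransferase Dnmt1 1.26 and 1.85 RPKM (log2 difference 0.42, limma adjusted p = 0.0012).

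Clusters were defined as runs of at least 4 Zfp genes with neighbours at most 500 kb apart. There were 19, with 159 of the 337 genes, and 9 of them lay on chromosome 7. The largest, on chromosome 13 (chr13:66668001-67829500), held 20 genes, the next, on chromosome 17 (chr17:21006501-23613000), 19, and the third (chr7:24074001-25247500) 14. In clusters 13.6% of tested H3K4me3 regions were higher in ExE and 7.28% in epiblast, and outside them 14.3% and 18.6%. For H3K36me3 the shares were 48.5% and 4.41% in clusters and 35.6% and 11.1% outside. Of all tested regions 23.8% and 20.6% were called for H3K4me3, and 31.5% and 19.6% for H3K36me3. Among all regions with a mean of at least 1 RPKM the H3K36me3 shares were 81.0% and 2.27%, and shares in clusters were not computed there.

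The cluster medians of H3K36me3 were above 0 in 17 of 19 clusters and ranged from -0.08 to 0.42, where the median of all tested regions was 0.06, which 16 clusters exceeded. By edgeR with TMM scaling, 15 medians were above 0 and 17 above that of all regions (-0.08). Among regions with a mean of at least 1 RPKM, limma gave a median of 0.34 for all and 0.26 for Zfp regions. Cluster medians were not computed at that minimum. In 16 clusters more regions were higher in ExE than in epiblast, and in none the reverse. The chromosome 13 cluster had 9 of 20 regions higher in ExE and none in epiblast (median 0.25), the chromosome 17 cluster 10 and 2 of 16 (median 0.36), and the 14-gene chromosome 7 cluster 2 and 0 of 11 (median 0.06). Cluster medians of H3K4me3 were above 0 in 8 and below 0 in 11 (above 0 in 12 by edgeR), with 6 above the median of all regions under either scaling. The chromosome 13 cluster had 2 regions higher in ExE and 1 in epiblast of 26. Within the chromosome 7 cluster of Zfp936, the neighbour Zfp715 was higher in ExE for H3K36me3, a call lost in 6 of the fits that left out 1 library, and Zfp819 was higher in epiblast.

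**Figure D3:**
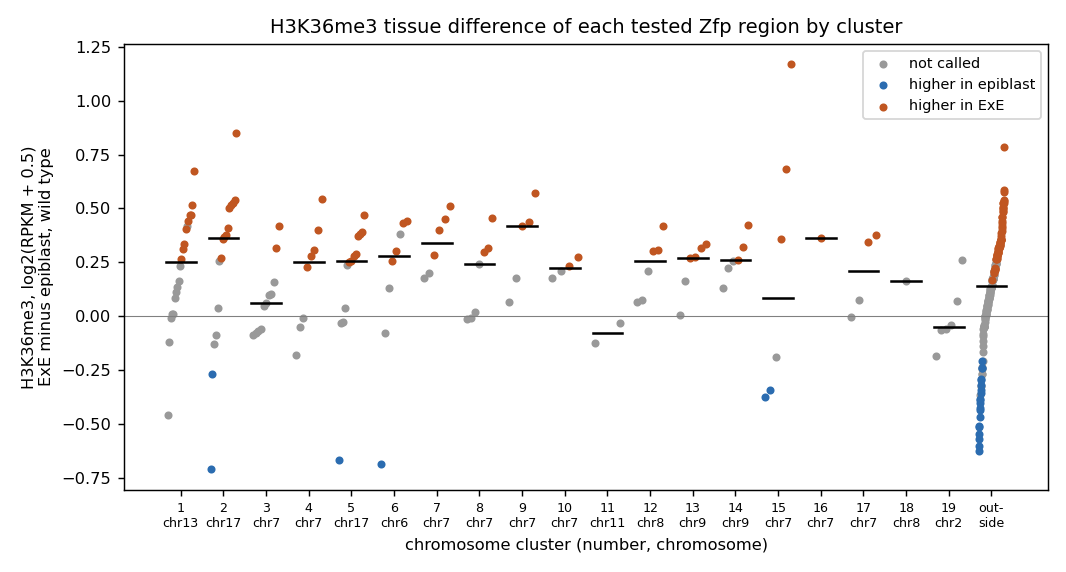
H3K36me3 tissue difference (log2, ExE minus epiblast) of each tested Zfp region, grouped by the 19 chromosome clusters and by position outside clusters. Points are regions, coloured by call, and bars are the medians, which lie above 0 in 17 of the 19 clusters (15 with the scaling of edgeR).

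Promoter sequence was described for 400 RefSeq promoters of 331 Zfp symbols, which include 273 of the 337 genes, over 300 bases (250 before and 50 after the start). Zfp promoters had a median observed-to-expected CpG ratio of 0.607 and 54% GC, against 0.373 and 52.4% for all 32851 promoters. Letters were searched on both strands, and none of the searched strings contains another. ATGGCG was present in 16% of Zfp promoters and 8.93% of all, CCGGAAGT in 9.75% and 3.89%, the motif of the activator NRF1 in 8.5% and 4.60%, TGACGTCA in 3.75% and 1.79%, CCAAT in 47% and 37.4%, and TATAAA in 6.75% and 13.6%. The 10 promoters inside a region with more H3K4me3 in ExE had a median CpG ratio of 0.414, and 8 of them held CCAAT, whereas the 33 inside a region with more in epiblast had a median of 0.659 and 5 held CCAAT. These are descriptions of few promoters, without a test.

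Allelic counts came from reads that span a base at which B6 and CAST differ, with 529316 to 3126734 assigned reads in autosomal peaks per allele and library for H3K4me3 in epiblast, 1319673 to 3475199 in ExE, and 133586 to 1083625 for H3K36me3. A peak with at least 20 reads on 1 allele of a wild-type library was informative, as were 368 Zfp H3K4me3 peaks in epiblast and 390 in ExE. Strain-specific peaks were those where the same strain was higher in both crosses (edgeR quasi-likelihood test per cross, adjusted p under 0.05). In ExE, 17 Zfp peaks were B6-specific and 10 CAST-specific, beside 2.24% and 1.71% of all informative peaks. In epiblast, 2 and 2 were called, beside 0.477% and 0.364% of all. Leaving out 1 library left 5 to 10 and 1 to 7 in ExE, the fewest without CAST/B6 replicate 2 (5 and 1, beside 0.801% and 0.508% of all), and at most 1 and 0 in epiblast. Maternal and paternal counts of 1 library are a pair, and a fit that kept each library as a block gave 15 and 8 in epiblast (2.93% of all) and 20 and 12 in ExE (5.0% of all). DESeq2, another count test, called 3 and 1 in ExE (0.758% of all) and none in epiblast (0.295% of all). For H3K36me3, Zfp606 was the one call in ExE (220 informative Zfp peaks, 1.10% of all called), a call lost with the library block. In epiblast edgeR called none of 249 (0.424% of all) and DESeq2 none, while 9 had an unadjusted p under 0.05 in both crosses with the same strain higher (3.16% of all).

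Fitting both crosses jointly, with cross, strain and parent as terms, called 48 Zfp H3K4me3 peaks for B6 and 38 for CAST in ExE, or 22.1% of the informative ones (19% of all peaks), and 19 and 10 in epiblast, or 7.88% (6.09% of all peaks), the latter rising to 44 and 30 (17.6% of all) with the library block. The epiblast counts fell to 2 and 2 (0.605% of all) without CAST/B6 epiblast replicate 2, and DESeq2 called 14 and 6 (4.08% of all) in epiblast and 28 and 13 (8.23% of all) in ExE. The joint test for H3K36me3 called 11 and 8 in ExE (8.22% of all) and 6 and 7 in epiblast (4.45% of all), whereas DESeq2 called 1 and 1 in ExE (1.67% of all) and none in epiblast (0.533% of all). Leaving out any 1 wild-type library lowered the joint calls of both marks in both tissues, at Zfp peaks and over all peaks. Zfp peaks had more reads than others, a median of 846.5 against 371 in ExE. Among peaks with 500 to 2000 reads, 20.4% of Zfp peaks and 16.3% of all peaks were called in ExE, and 7.88% and 3.14% in epiblast. Whether the 2 alleles map equally well to the masked genome was not tested.

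Zfp59 on chromosome 7 was B6-biased in both tissues. Over its start (chr7:27837001-27840500), the B6 share of H3K4me3 reads in ExE was 64.1% and 62.8% in B6/CAST, 68.3% and 73.7% in CAST/B6, and 67.5% and 58.8% in matDKO/CAST, where the share is that of the maternal allele, B6 or 129. In epiblast it was 67.6% and 70.3%, 69.5% and 69.4%, and 65.1% and 64.6%. Every library of either tissue favoured B6, whichever parent gave that allele, with a log2 ratio of B6 to CAST of 0.99 in ExE (SE 0.11, edgeR adjusted p = 4.69e-10, 1100 reads) and 1.11 in epiblast (SE 0.16, edgeR adjusted p = 4.84e-05).

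Zfp936, the gene with the largest tissue difference, was CAST-biased in ExE, with B6 shares of 31.6% and 24.3% in B6/CAST, 29.3% and 30.7% in CAST/B6 and 33.7% and 24.5% in matDKO/CAST (log2 ratio -1.33, SE 0.13, edgeR adjusted p = 1.63e-11). All 6 ExE libraries leaned to CAST. A peak downstream of Zfp819 had B6 shares of 7.25%, 13.6%, 18.2% and 12.5% in the wild-type ExE libraries and 18.1%, 16.9%, 14.0% and 17.6% in epiblast (log2 ratio -2.87 and -2.41, edgeR adjusted p = 5.68e-10 and 2.80e-05). Near Zfp119b the B6 shares were 73.0%, 77.6%, 78.4% and 72.3% in ExE and 77.9%, 75.6%, 72.6% and 70.9% in epiblast (log2 ratio 1.54 and 1.51). All wild-type libraries at each of these loci were on the same side. Other strong biases were to CAST near Zfp664 (mean B6 share 16.8%) and at Zfp879 (34.1%), and to B6 at Zfp488 (75.8%), Zfp808 (74.7%) and Zfp125 (65.1%).

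Libraries that had no part in these calls were on the same side in most cases. Of the 27 ExE strain-specific Zfp peaks, 25 were also informative in epiblast and 24 of these leaned to the same strain, and at 23 of the 27 both matDKO/CAST ExE libraries did. The 4 epiblast calls were on the same side in ExE and in both matDKO/CAST epiblast libraries. The exceptions in matDKO/CAST were Zfp94, Zfp872, Zfp874a and Zfp488. A peak counted as on the same side however near it lay to equal shares. Mean B6 shares in ExE and epiblast were 9.19% and 49.8% near Zfp212 and 41.9% and 48.7% at Zfp94. For the epiblast call at Zfp870 they were 30.5% in epiblast and 47.2% in ExE. The like count over all strain-specific peaks was not made.

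**Figure D4:**
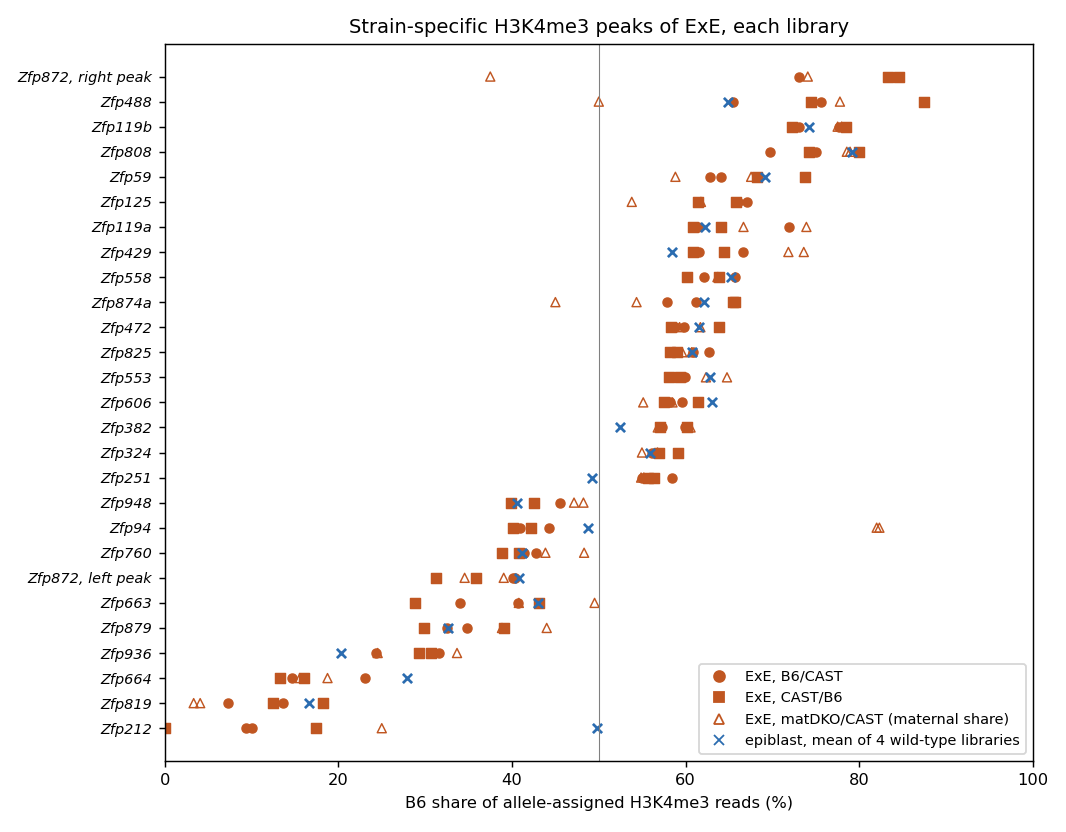
B6 share of allele-assigned H3K4me3 reads (%) in each ExE library at the strain-specific Zfp peaks. Orange points are libraries, with shape for cross and the maternal share shown for matDKO/CAST, blue crosses are means of the 4 wild-type epiblast libraries, and the grey line marks equal shares. Apart from 4 genes the matDKO/CAST libraries fall on the same side as both wild-type crosses.

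A parent-of-origin bias was rare at Zfp peaks. In ExE, 1 H3K4me3 peak, over a coding exon of Zfp777 (chr6:48021001-48026500), was called paternal in both crosses (0.19% of all informative peaks were). Its paternal share was 70.9% and 77.1% in B6/CAST and 76.0% and 75.0% in CAST/B6, on 55, 48, 25 and 24 reads, and 51.8% and 37.7% in matDKO/CAST. The wild-type libraries were all above the matDKO/CAST ones (joint log2 ratio of paternal to maternal 1.54, SE 0.28, edgeR adjusted p = 0.000405), but the difference between matDKO/CAST and B6/CAST did not pass its test (log2 -1.77, edgeR adjusted p = 0.246). The call in both crosses was lost without any 1 of the 4 wild-type libraries, at an adjusted p of 0.01, with at least 20 reads required in each cross and by DESeq2. Requiring 20 reads in each cross left 15976 ExE peaks, the number that the study evaluated, and none of the Zfp peaks among them was called imprinted. The joint fit kept its call in all of the 8 refits, with an adjusted p of at most 0.0463 (edgeR or DESeq2).

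The joint fit called 2 further ExE H3K4me3 peaks as maternal (0.28% of all, with 0.431% paternal), Zfp938 with paternal shares of 40.3%, 48.4%, 34.7% and 31.9% (log2 -0.70, edgeR adjusted p = 8.22e-05) and Zfp945 with 33.7%, 40.0%, 47.0% and 45.2% (log2 -0.53, edgeR adjusted p = 0.022). For H3K36me3 it called Zfp473 as paternal in ExE (0.401% of all), with 62.6%, 59.0%, 60.0% and 63.9% (log2 0.68, edgeR adjusted p = 0.0078). These biases were slight. Zfp945 lost its call whichever of the 4 libraries was left out, and by DESeq2 and with no filter on counts. Zfp938 lost it without B6/CAST replicate 1, and Zfp473 without B6/CAST replicate 1 or either CAST/B6 library and by DESeq2. Blocking on the library called 6 ExE H3K4me3 peaks as paternal instead of 1 (0.582% of all). In epiblast edgeR called no Zfp peak for parent (0.197% of all H3K4me3 peaks), nor did DESeq2, and at an unadjusted p under 0.05 there were 2 paternal and 3 maternal H3K4me3 peaks (0.605% and 0.512% of all), while blocking on the library called 1 as paternal (0.202% of all).

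Allelic H3K4me3 was first read at the targeted genes. A Dnmt3a H3K4me3 peak (chr12:3884501-3894500) had paternal shares of 50.0% and 48.3% in B6/CAST epiblast and 18.8% and 27.2% in matDKO/CAST epiblast (log2 difference -1.75, edgeR adjusted p = 0.0022), and its ExE values were 52.5% and 48.5% against 25.9% and 18.4% (log2 difference -1.75, edgeR adjusted p = 0.0020). The peak was thus more maternal in matDKO/CAST, the side that carries the deletion. The other Dnmt3a peaks were not called, no Dnmt3b peak was informative, and whether the peak covers the deleted exons is not given in the sources used here, so these values do not check the deletion. Total signal at Zfp regions was compared between matDKO/CAST and B6/CAST with 2 libraries in each arm, so an absent call does not show likeness. For H3K4me3, 1 epiblast H3K4me3 region was higher in matDKO/CAST (limma, 0.458% of all, 0.574% in either direction) and in ExE none was called (0.195% of all), with 6 higher and 5 lower at an unadjusted p under 0.05 (0.806% and 3.77% of all). The epiblast call was lost by edgeR with TMM, with libraries centred and with a pseudocount of 0.1, while a minimum of 1 RPKM gave 3 (164 of all 19489). For H3K36me3 limma called no Zfp region in epiblast or ExE (0.00583% of all in each), with 27 higher and 7 lower of 316 in epiblast (5.4% and 4.53% of all) and 4 higher and 37 lower in ExE (3.38% and 12.5% of all) at an unadjusted p under 0.05, and edgeR called 1 higher in epiblast and 5 lower in ExE (0.0641% and 2.78% of all). The ExE count depended on the setting: 14 of 172 Zfp regions were lower in matDKO/CAST with a minimum of 1 RPKM (19.1% of all such regions), 9 with libraries centred (3.08% of all), and 8 without B6/CAST epiblast replicate 1 or without replicate 2 (3.47% and 3.42% of all). For H3K27me3 neither limma (0.138% and 0.0401% of all) nor edgeR called any, with 9 in epiblast and 8 in ExE at an unadjusted p under 0.05 by limma (11.1% and 4.71% of all).

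Parental bias did differ between the 2 crosses at 8 Zfp genes, and 5 of them lay in 1 interval. Of informative Zfp peaks, 4 in epiblast and 7 in ExE were more maternal in matDKO/CAST for H3K4me3, and 1 in ExE was more paternal (edgeR interaction of cross and parent, adjusted p under 0.05). Of all informative peaks, 0.615% in epiblast and 0.81% in ExE were called more maternal, and 0.0819% in ExE more paternal. Blocking on the library gave 11 more maternal and 2 more paternal peaks in ExE (1.7% and 0.276% of all), and 2 more paternal in epiblast (0.202% of all). For H3K36me3, 1 ExE peak was called (0.326% of all), and in epiblast none (edgeR, 0.163% of all), with 3 more paternal and 7 more maternal at an unadjusted p under 0.05 (1.83% and 2.76% of all). Within chr7:24132501-24318500, an interval drawn from the first to the last called peak and 186 kb of the 14-gene chromosome 7 cluster, all 8 informative H3K4me3 peaks were Zfp peaks, and 4 were called in epiblast and 5 in ExE, a share that the choice of its ends raises.

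At Zfp94 the paternal share of H3K4me3 was 54.1% and 44.2% in B6/CAST epiblast, 49.4% and 43.9% in CAST/B6 and 13.5% and 14.0% in matDKO/CAST (log2 difference from B6/CAST -2.61, edgeR adjusted p = 0.00015). In ExE it was 55.7% and 59.1%, 40.2% and 42.2%, and 17.7% and 18.0% (log2 difference -2.57, edgeR adjusted p = 3.78e-05). Both matDKO/CAST libraries were far below the 4 wild-type libraries in either tissue. Zfp109 had 54.8% and 55.6% in B6/CAST epiblast against 11.5% and 23.5% in matDKO/CAST (log2 difference -2.77, edgeR adjusted p = 0.0017), on 52 and 17 reads in the latter. Its ExE shares were 57.4% and 51.2% against 18.9% and 14.5% (log2 difference -2.53, edgeR adjusted p = 0.00049).

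Zfp235, at the start of the interval, had 45.6% and 39.6% in B6/CAST epiblast against 14.7% and 18.3% (log2 difference -1.97, edgeR adjusted p = 0.0017), and in ExE 50.6% and 45.2% against 27.6% and 25.1% (log2 difference -1.31, edgeR adjusted p = 0.0015). Zfp114 had 52.1% and 43.0% against 5.66% and 15.0% in epiblast (log2 difference -3.30, edgeR adjusted p = 0.0044) and 40.8% and 43.0% against 20.7% and 11.1% in ExE (log2 difference -1.73, edgeR adjusted p = 0.022). Zfp108, called in ExE only by its adjusted p of 0.049 (edgeR, log2 difference -1.63), had 61.8% and 62.8% against 31.1% and 38.9%. At all 5 genes the matDKO/CAST libraries lay below every wild-type library of the tissue in which the gene was called.

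**Figure D5:**
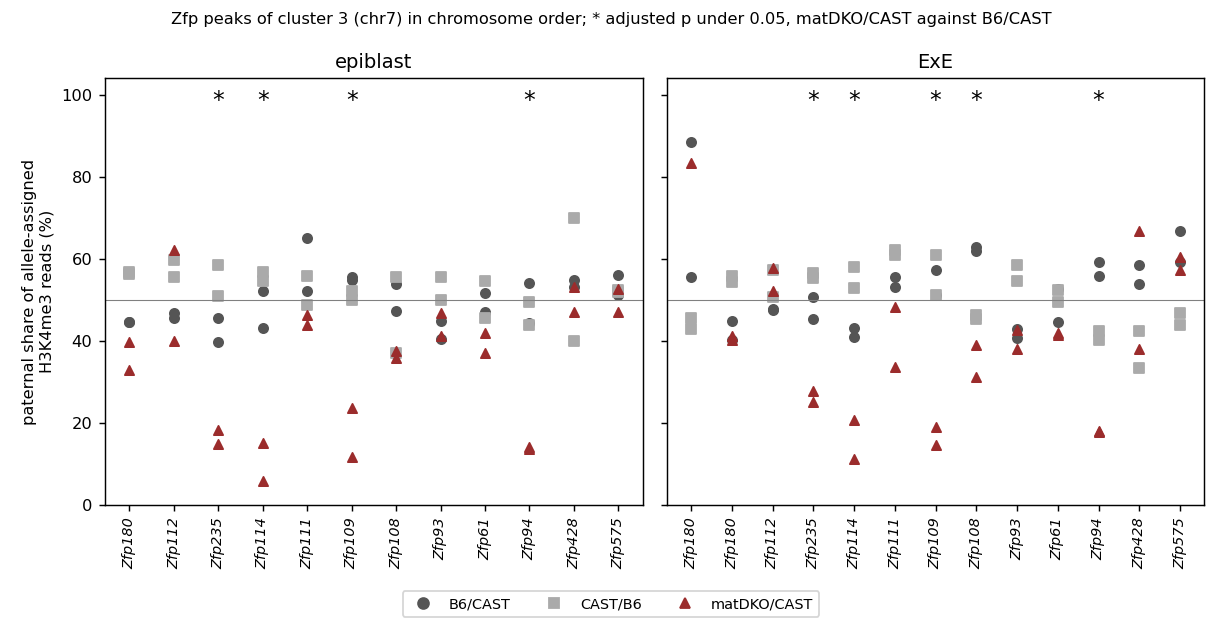
Paternal share of allele-assigned H3K4me3 reads (%) at the informative Zfp peaks of the 14-gene chromosome 7 cluster, in their order along the chromosome. Points are libraries coloured by cross, with epiblast and ExE in separate panels, and the matDKO/CAST points fall well below 50% at Zfp235, Zfp114, Zfp109 and Zfp94 in both tissues.

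Total H3K4me3 was also read at these peaks. Zfp235 had 7.47 and 10.4 RPKM in B6/CAST epiblast and 9.30 and 9.37 RPKM in matDKO/CAST, and Zfp109 had 7.89 and 9.77 RPKM against 9.98 and 10.8 RPKM, so the groups overlapped at the former and not at the latter. In ExE the crosses narrowly did not overlap at Zfp114 (3.95 and 4.95 RPKM against 3.89 and 3.95 RPKM). The part of these levels in the allelic differences was not tested. Other Zfp peaks of the cluster, at Zfp111, Zfp112, Zfp180, Zfp428, Zfp575, Zfp61 and Zfp93, were not called in either tissue. Of features that are not Zfp genes in the cluster, 1 of 27 informative peaks was called in epiblast and 2 of 28 in ExE. H3K36me3 gave no call at its 6 informative peaks in the interval. The mothers of matDKO/CAST carried 129 as well as B6 chromosomes and those of B6/CAST did not, so the maternal deletion and the maternal strain of a locus cannot be told apart here. Maternal reads were also assigned differently, since for matDKO/CAST sites at which 129 and CAST are alike were dropped and reads specific to 129 were added to the B6 reads. The part of this step in the maternal shares was not tested.

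Outside that cluster, Zfp692 was more maternal in matDKO/CAST ExE for both marks. Its paternal share of H3K4me3 was 45.7% and 48.2% in B6/CAST, against 27.5% and 25.6% in matDKO/CAST (log2 difference -1.23, edgeR adjusted p = 0.0046), and that of H3K36me3 47.1% and 64.2% against 20.8% and 14.3% (log2 difference -2.56, edgeR adjusted p = 0.0046). Zfp628 had 47.2% and 47.4% against 32.0% and 28.9% (log2 difference -0.98, edgeR adjusted p = 0.016). Total H3K4me3 in ExE at Zfp628 was 5.12 to 6.18 RPKM in B6/CAST and 4.11 to 4.76 RPKM in matDKO/CAST. At Zfp692 it was 11.0 to 12.8 RPKM against 9.70 to 10.6 RPKM, and the part of these levels in the allelic differences was not tested. Zfp932, the retroelement binder, was the one peak that was more paternal. Its paternal share was 42.3% and 40.5% in B6/CAST against 80.7% and 68.1% in matDKO/CAST (log2 difference 2.13, edgeR adjusted p = 0.0058). In CAST/B6, where the father is B6, the paternal share was 68.1% and 57.1%. Both wild-type crosses thus leaned to the B6 allele, and matDKO/CAST to the paternal CAST allele. Total H3K4me3 at Zfp932 in ExE was 6.97 and 7.07 RPKM in B6/CAST and 2.64 and 5.13 RPKM in matDKO/CAST, and its input was 0.190 and 0.196 RPKM against 0.0457 and 0.0769 RPKM. Neither overlapped, and the part of these levels in the allelic difference was not tested. With 2 libraries per arm these calls were fragile: without B6/CAST ExE replicate 1 the 7 maternal calls in ExE fell to 1 (0.224% of all) and without replicate 2 to 2 (0.237% of all). The 4 in epiblast fell to 0 without matDKO/CAST replicate 1 (0.0541% of all) and to 2 without replicate 2 (0.266% of all). Zfp94 in ExE kept its call in all such fits. Zfp932 lost its call without either B6/CAST ExE library and without matDKO/CAST ExE replicate 2. The H3K36me3 call of Zfp692 was lost without B6/CAST ExE replicate 2 and without matDKO/CAST ExE replicate 3.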

How the data were processed

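H3K4me3, H3K36me3 and H3K27me3 were measured in 36 ChIP-seq libraries (18 groups of 2 pools of embryos) with 15 inputs. Per the labels and the study's methods, the authors trimmed reads with Trim Galore (0.4.4 in the submitters' processing notes), aligned them with Bowtie2 2.3.2 to GRCm38 with strain differences masked, split them by allele with SNPsplit, and joined chromstaR peaks of the wild-type crosses per tissue and mark. For matDKO/CAST, whose mothers kept some 129 alleles, the authors left out variants shared by 129 and CAST, mapped the reads still without an allele to a 129 and CAST genome, and counted 129 reads as maternal with the B6 reads. The deposited files hold read counts per peak and allele, and RPKM in autosomal 1-kb windows. A mean over windows is the value of a region, and inputs were not subtracted. The RPKM values came out as whole reads in all windows (tolerance 0.05 read), so a count test was run on the recovered reads.

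Peaks of both tissues were joined where they overlapped, and positions come from GENCODE vM21. The members, gene lists and clusters were chosen with earlier results of these data known. RPKM were compared with limma 3.58.1 on log2(RPKM + 0.5) over regions with a mean of at least 0.5 RPKM, with all 12 libraries of a mark sharing 1 estimate of the spread. A difference of log2(RPKM + 0.5) understates the change of low regions. Allelic counts were compared with edgeR 4.0.16 (quasi-likelihood, TMM) over peaks with at least 20 reads on 1 allele, per cross, jointly, and as an interaction of cross and parent. All tests were two-sided with Benjamini-Hochberg adjustment over all regions or peaks at 0.05, and fits were tested on simulated data. DESeq2 1.42.0, other filters, pseudocounts and scalings, and leaving out each library were alternatives. Depth limits the precision of counts, and shares of few reads cover counting error only as far as replicates show it.

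Named are the Zfp genes of the role lists, the 10 largest called tissue differences per mark and direction, all calls for parent and for the interaction, the 8 largest strain-specific peaks per direction, mark and tissue, and the clusters with the most genes. The 2 allele columns of a library come from 1 pool and are a true pair. Deviations of epiblast and ExE libraries with the same number from their group means correlated at 0.295 to 0.302 for wild-type H3K4me3, 0.093 for matDKO/CAST H3K4me3 and -0.067 to 0.098 for the other marks. Not every pair was above 0.1, so the number was not taken as a pairing, and whether the H3K4me3 libraries share a batch is not known. The replicates are separate pools according to the methods. Work used R 4.3.3, Python 3.11.15, pandas 2.3.3, numpy 2.4.6 and matplotlib 3.10.9. Sex chromosomes and 1 gene were left out by the selection rule, and other deposited tables were not used.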

Additional observations from a re-analysis of the deposited data

Results flagged for a closer look

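In 13 cases the parental bias of a Zfp peak differed between matDKO/CAST and B6/CAST by the test of the interaction itself (edgeR), given as the log2 paternal-to-maternal ratio in matDKO/CAST minus that in B6/CAST. In epiblast H3K4me3 the differences were -1.97 at Zfp235, -3.30 at Zfp114, -2.77 at Zfp109 and -2.61 at Zfp94. In ExE H3K4me3 they were 2.13 at Zfp932, -0.98 at Zfp628, -1.31 at Zfp235, -1.73 at Zfp114, -2.53 at Zfp109, -1.63 at Zfp108, -2.57 at Zfp94 and -1.23 at Zfp692. In ExE H3K36me3 the difference was -2.56 at Zfp692. The maternal genome of matDKO/CAST differs from that of B6/CAST both in the deletion of Dnmt3a and Dnmt3b and in its share of 129, and these cannot be told apart. Its maternal reads also include reads assigned to 129, a step that B6/CAST did not have and whose part was not tested. Whether the difference itself varied between epiblast and ExE was not tested.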

How the results depend on the processing

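Refits of single members covered the 10 largest tissue differences per mark and direction and the named allelic calls, not the other regions of the role lists. None of these changed sign. The 20 tissue differences in H3K4me3 and the 20 in H3K27me3 kept their call in every refit, while 16 of 426 refits for H3K36me3, 25 of 78 for the cross-by-parent interaction, 11 of 32 for parent and 3 of 256 for strain lost it. A pair of other settings could not change a value: windows that touch a region by 1 bp are the same windows on the grid of the peaks, and no tested region had over 4 RPKM of input. Where a count moved, the cause was not tested unless the alternative itself removes regions or samples.

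For total signal, edgeR with TMM on recovered reads called 54 H3K36me3 regions higher in epiblast (26 by limma), 43 and 12 in matDKO/CAST (74 and 5), 1 higher in matDKO/CAST epiblast and 5 lower in matDKO/CAST ExE than in B6/CAST (0 and 0), for H3K27me3 55 higher in epiblast (36) and 34 in matDKO/CAST (14), and for H3K4me3 0 higher in matDKO/CAST epiblast (1). Centring libraries gave 0 for that last count, 9 H3K36me3 regions higher in epiblast in matDKO/CAST and 9 lower in matDKO/CAST ExE, and for H3K27me3 18 and 56 in wild type and 12 and 30 in matDKO/CAST. A minimum of 1 RPKM left 28 H3K4me3 regions higher in ExE in wild type, 16 in matDKO/CAST and 3 in matDKO/CAST epiblast against B6/CAST, 5 H3K36me3 regions higher in epiblast and 14 lower in matDKO/CAST ExE, and 11 and 8 H3K27me3 regions higher in ExE. No filter gave 68 H3K27me3 regions higher in epiblast. A pseudocount of 0.1 and windows wholly inside a region, the latter chosen after seeing the data, each gave 0 for the matDKO/CAST epiblast H3K4me3 count. Start-site regions alone, also chosen after seeing the data, gave 18 and 35 for H3K4me3.

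For alleles, DESeq2 gave in epiblast 0 and 0 strain-specific H3K4me3 peaks and 6 for CAST in the joint fit, and in ExE 3 and 1, 0 imprinted, 28 and 13 in the joint fit and 1 maternal. For H3K36me3 it gave 0 and 0 in epiblast, and in ExE 0 strain-specific, 1 and 1 in the joint fit and 0 for parent. An adjusted p of 0.01 left 0 and 0 strain-specific H3K4me3 peaks in epiblast, 8 and 6 in ExE, 0 imprinted and 0 for H3K36me3 in ExE. At least 20 reads in each cross left 0 imprinted. Library totals gave 2 paternal H3K4me3 peaks in ExE. No filter on counts gave 4 paternal and 1 maternal there, 4 H3K36me3 peaks for CAST in epiblast and 0 strain-specific in ExE.

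The 2 allele columns of a library are a pair. With the library as a replicate block, epiblast H3K4me3 gave 15 and 8 strain-specific peaks, 44 and 30 in the joint fit, 1 paternal and 2 more paternal in matDKO/CAST. In ExE this block gave 6 paternal, 2 more paternal and 11 more maternal in matDKO/CAST, and for H3K36me3 0 strain-specific and 1 maternal. It moved no other count by more than 1.5 times. The replicate number as a block between tissues, which are not known to share a pool, gave 4 H3K4me3 regions in matDKO/CAST epiblast and 37 H3K27me3 regions higher in ExE in matDKO/CAST, and wild-type H3K4me3 counts of 62 and 62.

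Leaving out 1 library at a time, wild-type H3K4me3 regions higher in ExE ranged from 35 (without B6/CAST ExE replicate 1) to 76, and wild-type H3K36me3 regions higher in epiblast from 14 (without CAST/B6 epiblast replicate 1) to 30. In matDKO/CAST the ranges were 21 to 44 and 32 to 52 for H3K4me3 (lowest without ExE replicate 2 and epiblast replicate 1), 15 to 94 and 2 to 10 for H3K36me3 (15 without epiblast replicate 2), and 0 to 25 and 7 to 20 for H3K27me3 (0 without ExE replicate 2), ExE before epiblast. Against B6/CAST they were 0 to 3 and 0 to 1 for H3K4me3 in epiblast and ExE, 0 to 2 and 0 to 8 for H3K36me3 (8 without either B6/CAST epiblast library), and 0 to 7 for H3K27me3 in epiblast (7 without matDKO/CAST epiblast replicate 1). Epiblast strain-specific H3K4me3 peaks ranged from 0 to 1 for B6 and 0 to 0 for CAST, and joint calls from 2 to 14 and 2 to 6 (lowest without CAST/B6 replicate 2). In ExE the ranges were 5 to 10 and 1 to 7 (lowest without CAST/B6 replicate 2), 17 to 26 for CAST in the joint fit (lowest without B6/CAST replicate 2), 0 to 0 imprinted and 0 to 1 maternal. For H3K36me3 they were 2 to 6 and 0 to 3 in epiblast, and 0 to 1 strain-specific, 4 to 7 and 1 to 3 joint and 0 to 1 paternal in ExE. The interaction ranged from 0 to 5 more maternal peaks in epiblast (0 without matDKO/CAST replicate 1), 1 to 7 more maternal in ExE (1 without B6/CAST replicate 1) and 0 to 1 more paternal, and 0 to 1 for H3K36me3 in ExE. A fit with 1 library in an arm assumes that it varies like the other groups. At a gap of 250 kb there were 18 clusters with 139 genes and at 1000 kb 21 with 176. Per group there were 2 libraries, and allele shares on few reads were the least precise.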

Other observations

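A few peaks, singled out after their values were seen, had allelic shares unlike those of a neighbouring peak or of the other tissue. The gene Zfp872 had a pair of H3K4me3 peaks called in opposite strain directions in ExE, with mean B6 shares of 36.9% (413 reads, log2 ratio -0.84) in the peak that begins at chr9:22187001 and 81.1% (93 reads, log2 ratio 2.06) in the one that begins at chr9:22195001. Both overlap an annotated start of the gene. The latter was not informative in epiblast and had 74.1% and 37.5% in the matDKO/CAST libraries. A peak downstream of Zfp212 had a mean B6 share of 9.19% in ExE on 89 reads and 49.8% in epiblast, a difference between tissues that was not tested.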
